A study of Mus musculus with 14 samples.

Results

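Germinal centre (GC) B cells that carry the kinase variant SykY317F were compared between the light zone (LZ) and the dark zone (DZ). The comparison takes the 6 libraries labelled SykY317F out of the 14 of the series, 3 from the DZ and 3 from the LZ, with the replicate numbers 1, 2 and 4 in each zone. The cells came from popliteal lymph nodes of C57BL/6 mice, 14 days after immunization with the conjugate NP-KLH. Every mouse was a chimera of 50% wild type (WT) and 50% SykY317F cells, so mutant and WT B cells shared their nodes, and the other 8 libraries, 4 WT DZ and 4 WT LZ, come from the same design. The labels give no age, do not say whether each library stems from a mouse of its own, and do not say which surface markers were used for sorting. All p-values therefore measure the spread between these libraries.

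A GC is a cluster of B cells in a lymph node follicle that improves its antibodies by mutation and selection. DZ cells multiply and mutate their antibody genes. In the LZ, they take up antigen through their receptor, present it on MHC class II molecules to follicular helper T cells and receive signals through CD40, and chosen cells return to the DZ. Syk is the kinase that starts the signal from the antigen receptor, and the tyrosine replaced in SykY317F lies in its linker region and, when phosphorylated, binds Cbl family ubiquitin ligases.

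Counts are unique molecular identifiers (UMIs), each of which marks 1 captured mRNA molecule. The DZ libraries held 1293407, 1413310 and 381954 UMIs in replicates 1, 2 and 4, and the LZ libraries 379125, 201881 and 149641. The order replicate 1, 2 and 4 is kept for all values below, which are in CPM (UMIs relative to the TMM-scaled library total) unless UMIs are named. The LZ libraries were thus the shallow ones, and DZ replicate 4 and LZ replicate 1 were the only pair across the zones of nearly equal depth, called the pair of equal depth below. Per 100 reads, LZ gave 15.8, 9.52 and 9.37 UMIs and DZ replicate 4 gave 15.6, where the other 10 libraries of the series gave 33.5 to 53.2. In LZ, 3 UMIs corresponded to 8.95, 16.9 and 18.8 CPM. Of the 7999 genes tested, 50 had 0 UMIs in all LZ libraries and 0 had none in DZ, and 503 had 3 or fewer UMIs over the LZ libraries against 1 gene over the DZ libraries. A median gene had 25 UMIs over LZ and 125 over DZ. The first 2 principal components of all 14 libraries held 23.6% and 19.2% of the variance. On the first, the SykY317F LZ libraries lay at 29.3, 60.4 and 56.8, and all others, WT LZ included, at 13.4 or below. Whether depth sets them apart was not tested. On the second, SykY317F LZ replicate 2 lay at 50.1 and LZ replicate 4 at -80.3, so these 2 LZ libraries stood far from each other.

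The labelled cell type was checked on its defining marker. Bcl6, the repressor that defines GC B cells, was at 311, 279 and 216 in DZ and 131, 96.0 and 194 in LZ. It was present in every library. The variant Syk allele is transcribed, so Syk mRNA does not check the genotype: it was at 627, 509 and 506 in DZ and 429.8, 429 and 383 in LZ, and although each LZ value lay below each DZ value the log2 fold change of -0.40 ± 0.23 (SE) did not pass (adjusted p = 0.582). Cbl and Cblb, whose proteins bind the site lost in the variant, were too low to compare, at 11 and 2 UMIs over the LZ libraries.

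Of 7999 genes, 3 passed an adjusted p of 0.05 between the zones (0.0375%; edgeR quasi-likelihood test, Benjamini-Hochberg), 1 higher in LZ (0.0125%) and 2 lower (0.025%). At an unadjusted p under 0.05 there were 323 genes on the higher side (4.04%) and 498 on the lower (6.23%). The median log2 fold change of all genes, LZ over DZ, was -0.04, and 3737 genes lay above 0 (46.7%). Scaling by library size alone moved that median to -0.19, so all changes below are relative to the TMM scale, which sets most genes near 0. Spread around 0 widened at low expression. When genes were put in 5 equal bins by mean expression, the lowest bin had a median standard error of 0.88 and a median log2 fold change of -0.19, and the highest bin 0.30 and 0.02.

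**Figure D1:**
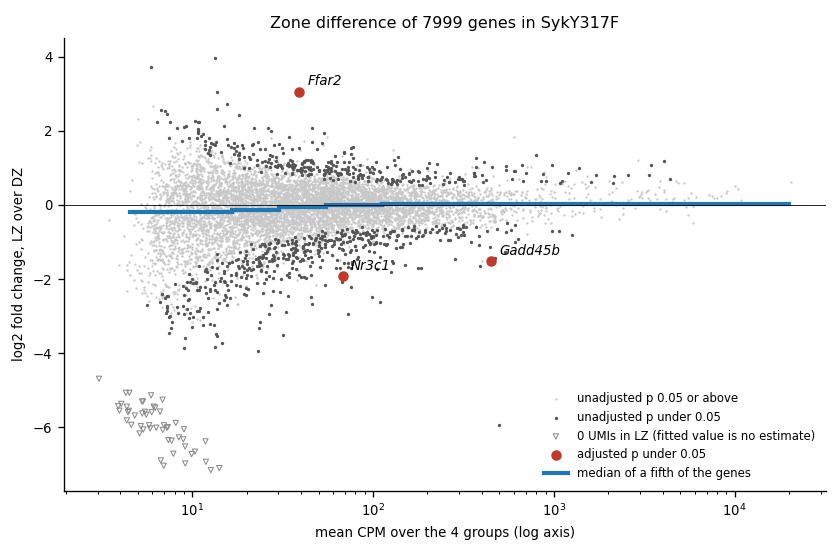
Log2 fold change of LZ over DZ in SykY317F against mean expression (CPM, log axis) for the 7999 tested genes. Red points mark the 3 genes past the threshold, blue lines the medians of 5 equal bins of genes by expression, from -0.19 to 0.02, and open triangles the 50 genes with 0 UMIs in every LZ library, whose fitted value is no estimate of a fold.

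Ffar2 rose in LZ. Ffar2 (chromosome 7, 30818348 to 30823775, GRCm38) encodes a G protein coupled receptor for short-chain fatty acids such as acetate. It had 14, 16 and 3 UMIs in DZ and 22, 15 and 17 in LZ, which is 10.2, 10.8 and 8.29 CPM in DZ and 65.7, 84.7 and 107 CPM in LZ. The shallower LZ libraries thus held more Ffar2 molecules in absolute number than the deep DZ ones, with 1 exception, LZ replicate 2 (15) against DZ replicate 2 (16). Its log2 fold change was 3.05 ± 0.46 (SE, 3 libraries a zone, adjusted p = 0.0148). In WT the log2 fold change was 1.64 ± 0.36, and the difference between genotypes was 1.41 ± 0.58, which did not pass. The call was lost without DZ replicate 1 (edgeR adjusted p = 0.0927), DZ replicate 4 (0.120) or LZ replicate 2 (0.0870), and when all libraries were thinned to the depth of the shallowest (0.134).

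Gadd45b fell in LZ. The product of Gadd45b (chromosome 10, 80930073 to 80932204) is a stress sensor that binds cell cycle and MAP kinase partners and is a known target of NF-kB. It was measured at 501, 447 and 622 in DZ and 188, 192 and 163 in LZ. The LZ libraries were close to each other, and the highest of them (192) was far below the lowest DZ library (447). The log2 fold change was -1.52 ± 0.24 (adjusted p = 0.0154), against -1.01 ± 0.20 in WT, where the gene passed as well. It lost its call without any single one of DZ replicate 1, DZ replicate 4 or the 3 LZ libraries (edgeR adjusted p from 0.0591 to 0.167), and in a fit of the 6 libraries alone (0.0675), with the fold change on the same side each time. It passed after thinning (0.0154).

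Nr3c1, the glucocorticoid receptor gene (chromosome 18, 39410545 to 39519421), also fell. There were 123, 116 and 30 UMIs in DZ and 9, 3 and 3 in LZ, or 89.3, 78.0 and 82.9 CPM in DZ and 26.9, 16.9 and 18.8 CPM in LZ. The zones did not overlap, but 2 of the LZ values rest on 3 UMIs each. The log2 fold change was -1.93 ± 0.35 (adjusted p = 0.0484) and in WT -0.11 ± 0.22. The difference between genotypes, -1.82 ± 0.42, was among the 3 of smallest p on its side and did not pass (adjusted p = 0.703). When single libraries were left out the Nr3c1 call was kept only without DZ replicate 2 or without WT DZ replicate 5. It was also lost after thinning (edgeR adjusted p = 0.122), without a filter (0.0529), with read counts (0.0617), in a fit of the 6 libraries alone (0.133) and in limma voom (0.181).

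Without the shallowest library of each zone, DZ replicate 4 and LZ replicate 4, 0 genes passed (edgeR; 3 with all libraries). DESeq2's Wald test, on all libraries, called 39 genes, 14 higher and 25 lower, among them these 3.

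**Figure D2:**
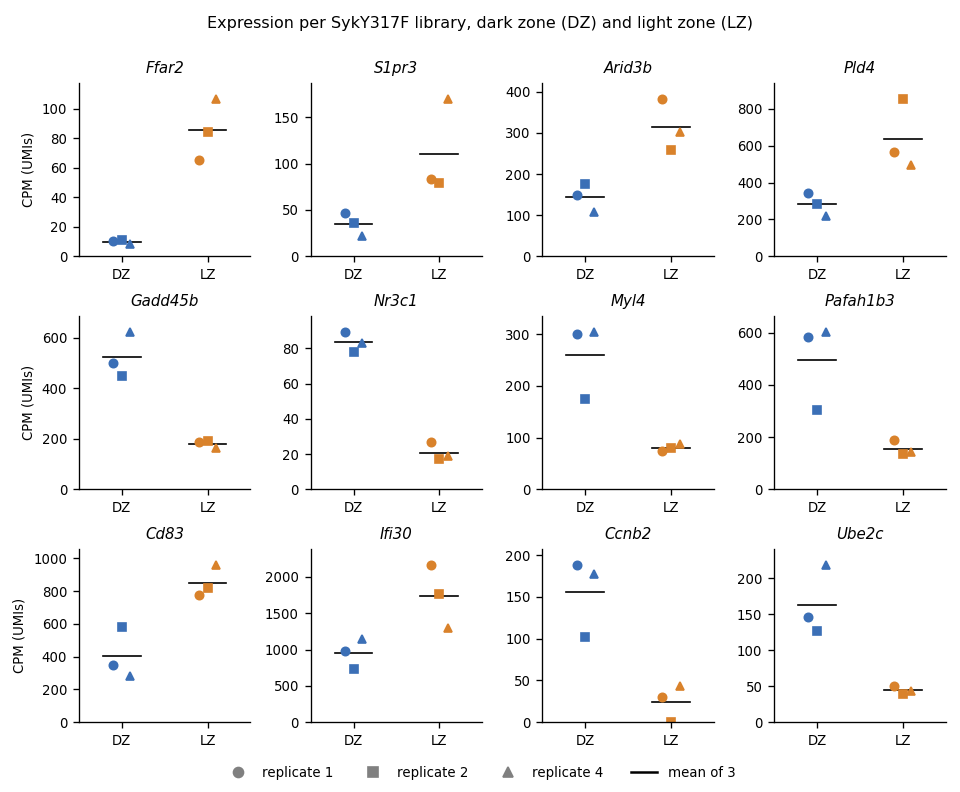
CPM of 12 genes in each SykY317F library, with circles, squares and triangles for replicates 1, 2 and 4 and a line at the mean of 3. In each panel the 3 LZ points lie on one side of the 3 DZ points, as for 525 genes above (6.56%) and 680 below (8.5%) of the 7999. Most of the 12 genes were named for a small p in these libraries, which favours such separation. Of the 12, Ffar2, Gadd45b and Nr3c1 passed the threshold.

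The genes next in p on the higher side did not pass (adjusted p from 0.111 to 0.168) and are given as measured. In each of these 11 genes every LZ library lay above every DZ library, which held for 6.56% of all genes. Since the genes were chosen by p in these same libraries, this separation is no further support for them. S1pr3, a receptor for sphingosine 1-phosphate, was at 47.2, 36.3 and 22.1 in DZ and 83.6, 79.0 and 169 in LZ (log2 fold change 1.55 ± 0.35). Arid3b, a DNA-binding protein of the ARID family, was at 149, 177 and 108 in DZ and 382, 259.7 and 301 in LZ (1.11 ± 0.25). Pld4, an exonuclease of the endosome that degrades single-stranded nucleic acids, was at 344, 284 and 221 in DZ and 567, 852 and 496 in LZ (1.16 ± 0.29). For these 3 genes the lowest LZ value stood well above the highest DZ value, and UMIs over LZ numbered 69, 222 and 420.

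H2-DMb2 encodes a chain of H2-M, which loads peptides on MHC class II, and was at 13.1, 22.9 and 22.1 in DZ and 35.8, 102 and 75.3 in LZ (1.84 ± 0.48). Its reads can be shared with the near-identical H2-DMb1. E2f3, a transcription factor of the cell cycle, had 14, 12 and 5 UMIs in DZ and 17, 8 and 5 in LZ (2.09 ± 0.48). Rec8, a cohesin subunit best known from meiosis, had 3, 4 and 0 UMIs in DZ and 4, 4 and 12 in LZ (3.96 ± 0.91), so its fold rests on 7 molecules in DZ and 20 in LZ. Pdxp, a phosphatase of vitamin B6 and cofilin, had 19, 19 and 2 UMIs in DZ and 16, 9 and 8 in LZ (2.07 ± 0.52). The remaining genes of this group were Bre, a subunit of a deubiquitinating complex in DNA repair, at 1.43, Ccdc17 at 1.39, the Mediator subunit Med23 at 1.55 and the synaptogyrin Syngr2 at 0.91. Arid3b, Ccdc17, E2f3, Pdxp, S1pr3 and Syngr2 overlap another annotated gene, and since the counting strand is not given in the sources used here their counts are uncertain.

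On the lower side the next 10 genes had an adjusted p from 0.0653 to 0.111, and in each of them every LZ library lay below every DZ library (8.5% of all genes). They too were chosen by p, which favours such separation. Myl4, a myosin light chain, was at 299.8, 175 and 304 in DZ and 74.6, 79.0 and 87.8 in LZ (-1.69 ± 0.33). Pafah1b3, a catalytic subunit of an acetylhydrolase of platelet activating factor, was at 584, 305 and 603 in DZ and 188, 135 and 144 in LZ (-1.65 ± 0.33). Both varied in DZ, where replicate 2 was the lowest, and little in LZ. Rgcc, a regulator of cell cycle kinases, was at 119.8, 65.9 and 144 in DZ and 29.8, 33.9 and 0 in LZ (-2.22 ± 0.48), with 0 UMIs in LZ replicate 4, where 3 UMIs would be 18.8 CPM. Arl5c, a small GTPase of the Arf family, was at 229, 137 and 194 in DZ and 74.6, 39.5 and 69.0 in LZ (-1.58 ± 0.34).

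Pole4, a small subunit of DNA polymerase epsilon, was at 142, 73.3 and 74.6 in DZ and 2.98, 16.9 and 25.1 in LZ (-2.95 ± 0.59). Its LZ values rest on 1, 3 and 4 UMIs. Hist1h2bc, a histone H2B gene, had 120 UMIs over DZ and 4 over LZ (-2.70 ± 0.60). Setd1b, a histone H3 lysine methyltransferase, had 146 UMIs over DZ and 3 over LZ, a depth-corrected ratio of DZ to LZ of 10.1 (95% counting interval 3.40 to 49.7). Rpl15, a protein of the large ribosomal subunit, had 26, 29 and 6 UMIs in DZ and 0 in all LZ libraries, at least 4.23-fold less than in DZ if the 3 LZ libraries together had held 3 UMIs. The zinc finger gene Zfp422 had 27, 25 and 4 UMIs in DZ and 0 in LZ, at least 3.89-fold less by the same bound. These intervals and bounds cover counting error only. Myl4, Pole4, Rpl15 and Setd1b overlap another annotated gene and are uncertain in the way given above. The same holds for other genes named in the text, among them Bcl6, Hmces, Lipc, Cd72, Cd52 and Nfkb2, and is not stated for each. Without DZ replicate 2, Myl4, Pafah1b3, Arl5c, Rgcc and Pole4 passed (edgeR adjusted p from 0.0206 to 0.0466). Ccnb2, the last of the group, is described with the cell cycle.

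The zone difference was then read on genes that passed in the WT libraries, which did not enter the SykY317F contrast except through the shared estimate of spread. In WT, 15 genes passed (0.188%), 4 higher (0.05%) and 11 lower (0.138%). All 15 were on the same side in SykY317F, and in 12 the 3 LZ libraries did not overlap the 3 DZ libraries. Over all genes, LZ lay above without overlap for 6.56% and below for 8.5%. Of the 15, 12 had an unadjusted p under 0.05 in SykY317F, against 10.3% of all genes, and 1, Gadd45b, passed after adjustment. The 11 genes lower in WT LZ had a median log2 fold change of -1.52 in SykY317F and -1.66 in WT. For the 4 genes higher in WT LZ the medians were 0.58 and 1.53. Since the genes were chosen for passing in WT, their WT values are large by choice, and 11 of the 14 with UMIs in SykY317F LZ were closer to 0 in SykY317F.

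Among the lower ones, Lipc, the hepatic lipase gene, had -1.52 ± 0.37 in SykY317F and -1.66 ± 0.28 in WT. Hmces, which shields abasic sites in single-stranded DNA, had -1.43 ± 0.36 and -1.44 ± 0.29. Gcsam, a signalling adaptor named for its expression in GC B cells, had -1.28 ± 0.49 and -2.09 ± 0.36. Smco4 had -1.27 ± 0.37 and -1.46 ± 0.27, and the unnamed transcript A630023P12Rik -1.26 ± 0.47 and -2.14 ± 0.33. Scn11a, a sodium channel subunit, had 45 UMIs over SykY317F DZ and 0 over LZ, at least 3.12-fold less by the bound of 3 UMIs given above.

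Of the higher ones, the complement factor properdin, Cfp, had 1.16 ± 0.36 in SykY317F and 1.37 ± 0.28 in WT. Cd72, an inhibitory co-receptor of B cells, had 0.70 ± 0.27 and 1.37 ± 0.24. Gadd45g, a relative of Gadd45b, had 0.25 ± 0.40 and 1.71 ± 0.33, and the adaptor Sh3bp2 0.46 ± 0.43 and 1.70 ± 0.34. The difference between genotypes was -1.46 ± 0.52 for Gadd45g, -1.24 ± 0.54 for Sh3bp2 and 0.87 ± 0.40 for the nucleotide kinase Cmpk1. These 3 had an unadjusted p under 0.05 for the difference and did not pass after adjustment.

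**Figure D3:**
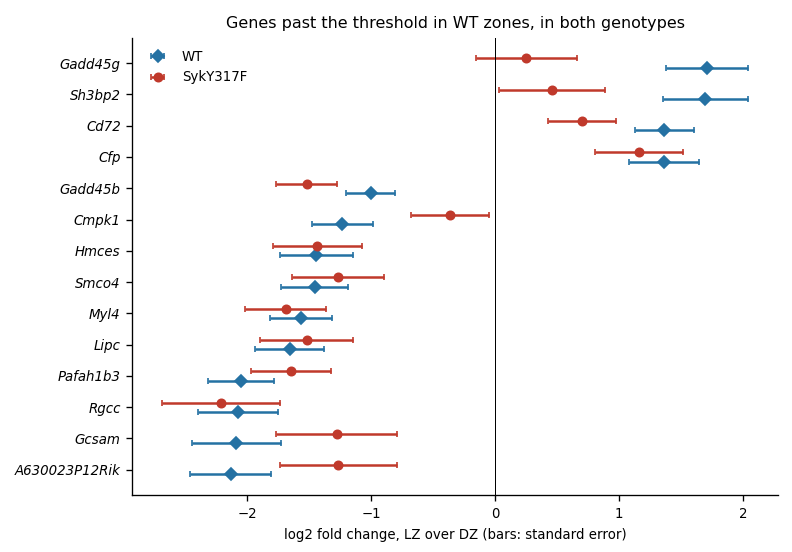
Log2 fold change of LZ over DZ (bars, standard error) for 14 of the 15 genes past the threshold in WT, in WT (blue diamonds) and SykY317F (red circles). Scn11a is not drawn because it had 0 UMIs in SykY317F LZ. All 14 lie on the same side of 0 in both genotypes, and 11 of the 14 are closer to 0 in SykY317F than in WT, where they were chosen for passing.

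Over all genes, 0 zone differences differed between the genotypes after adjustment (0% in edgeR, smallest adjusted p = 0.535; DESeq2's Wald test also called 0). At an unadjusted p under 0.05 there were 384 genes (4.8%), 130 of them with a higher log2 fold change in SykY317F (1.63%) and 254 with a lower one (3.18%). On the lower side the smallest p belonged to Herc1, a very large ubiquitin ligase, whose log2 fold change was -1.71 ± 0.43 in SykY317F and 0.67 ± 0.27 in WT, and to Setd1b. On the higher side were Cks2, a small subunit of cyclin-dependent kinases (1.25 ± 0.50 and -1.01 ± 0.40), E2f3 (2.09 and -0.16 ± 0.37) and the complex I subunit Ndufs4 (0.60 ± 0.35 and -1.18 ± 0.28). Cks2 and E2f3 rest on 23 and 30 UMIs over SykY317F LZ.

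Gene lists were described by counts and medians, to be read beside the median of -0.04 and the shares of 4.04% and 6.23% of all genes with an unadjusted p under 0.05 on the higher and lower side. Of 37 lists, the summed CPM of members lay higher in every LZ library than in every DZ library for 7 and lower for 3. The 7 were the LZ programme, NF-kB and CD40 targets, MHC class II, MHC class I, costimulation, inhibitory co-receptors, and apoptosis and survival, and some of these share genes. This separation depended in part on TMM scaling. As plain shares of each library's UMIs, the zones overlapped for MHC class II, MHC class I, costimulation and inhibitory co-receptors. G2 and mitosis and plasma cell differentiation were among the 3.

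The LZ programme is a list of genes known to be higher in LZ than DZ cells, and 28 of its 38 tested members had a positive log2 fold change. Its summed level was 8933, 12758 and 9122 in DZ and 17356, 18098 and 13423 in LZ, with DZ replicate 2 and LZ replicate 4 the closest. By unadjusted p, 12 members were under 0.05 on the higher side and 0 on the lower, and 0 passed after adjustment. The median log2 fold change was 0.37, against 0.78 in WT, and 0.76 without DZ replicate 2. In the pair of equal depth it was 0.62.

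Cd83, a surface protein by which LZ cells are recognised, was at 352, 581 and 285 in DZ and 779, 819 and 959.7 in LZ, without overlap (1.06 ± 0.28, adjusted p = 0.168). Cd86, a costimulatory ligand for T cells and the other common LZ marker, was at 40.7, 51.1 and 24.9 in DZ and 104, 62.1 and 201 in LZ, also without overlap (1.56 ± 0.61, adjusted p = 0.408). Cxcr4, the chemokine receptor that holds cells in the DZ, overlapped between the zones at 256, 236 and 337 in DZ and 245, 485 and 245 in LZ (0.23 ± 0.35, and -0.21 without LZ replicate 2). Swap70, which links phosphoinositide signals to actin in activated B cells, was at 130.0, 87.4 and 88.5 in DZ and 194, 181 and 232 in LZ (0.97 ± 0.27). Icosl, the ligand of ICOS on helper T cells, was at 207, 135 and 155 in DZ and 412, 282 and 213 in LZ (0.89 ± 0.27). Both were higher in every LZ library, with DZ replicate 1 and LZ replicate 4 of Icosl almost touching. Cd52, a small glycoprotein of lymphocytes, overlapped by 1 library at 1631, 3892 and 2427 in DZ and 6331, 7886 and 3763 in LZ (1.18 ± 0.36).

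NF-kB and CD40 targets had 17 of 22 members above 0, a median of 0.31, and 5 against 0 members at an unadjusted p under 0.05 on the higher and lower side. Their sums were 2762, 3297 and 2938 in DZ and 4110.0, 4302 and 3851 in LZ, which did not overlap. Icam1, the adhesion ligand of LFA-1, was at 125, 100.2 and 94.0 in DZ and 179, 226 and 176 in LZ (0.85 ± 0.26), and Nfkb2, the NF-kB subunit of the noncanonical pathway, at 186, 204 and 218 in DZ and 254, 378 and 395 in LZ (0.75 ± 0.29). Gadd45b, though an NF-kB target, went the other way. Costimulation and T cell help receptors had 14 of 19 above 0 with a median of 0.55. Tnfrsf13c, the survival receptor for BAFF, was at 582, 550.2 and 464 in DZ and 779, 971 and 1148 in LZ (0.85 ± 0.24), and Ly9, a SLAM family receptor, at 164, 173 and 129.9 in DZ and 257, 339 and 219.5 in LZ (0.79 ± 0.24). The opposite direction was seen for Cd24a, a surface sialoglycoprotein, at 367, 345 and 254 in DZ and 104, 147 and 107 in LZ (-1.45 ± 0.42).

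Genes of MHC class II presentation held the largest summed level among the 7 lists that were higher in LZ. It was 56599, 36320.5 and 57544 in DZ and 80956, 67758 and 64254 in LZ. DZ replicate 2 was the low library, and all LZ values exceeded all DZ values. As plain shares of UMIs the zones overlapped, at 6.03%, 3.82% and 5.45% in DZ and 7.15%, 5.95% and 6.85% in LZ. Of 18 tested members 13 were above 0 (median 0.40), and in 9 every LZ library lay above every DZ library, against 6.56% of all genes. Ifi30, the thiol reductase that unfolds antigens in the lysosome, was at 974, 736 and 1150.0 in DZ and 2161, 1761 and 1292 in LZ (0.87 ± 0.28). H2-Oa, a chain of the H2-O modulator of peptide loading, was at 945, 896 and 1078 in DZ and 1695, 1366 and 1254 in LZ (0.57 ± 0.29). Ciita, the master activator of class II genes, was at 117, 93.5 and 119 in DZ and 236, 152 and 119 in LZ (0.67 ± 0.32), where LZ replicate 4 equalled the top of DZ within 1 CPM. MHC class I presentation had 13 of 19 above 0 and a median of 0.16, with its activator Nlrc5 at 0.86 ± 0.33.

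Inhibitory co-receptors and phosphatases, which dampen the antigen receptor signal, had 9 of 14 members above 0 and a median of 0.39. Ptpn6, the phosphatase SHP-1, was at 0.63 ± 0.23, and Cd22, a sialic acid receptor that recruits it, at 0.62 ± 0.24. Members of the antigen receptor cascade itself were split, with 17 of 29 above 0 and a median of 0.15. Dapp1, an adaptor that binds phosphoinositides, was at 66.8, 89.5 and 69.1 in DZ and 41.8, 39.5 and 31.4 in LZ (-0.98 ± 0.31), and Blnk, the adaptor that Syk phosphorylates, at 663, 611 and 534 in DZ and 328, 254 and 521 in LZ (-0.72 ± 0.27). Dapp1 and Blnk were lower in each LZ library than in each DZ library, and neither passed (edgeR adjusted p = 0.297 and 0.357).

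**Figure D4:**
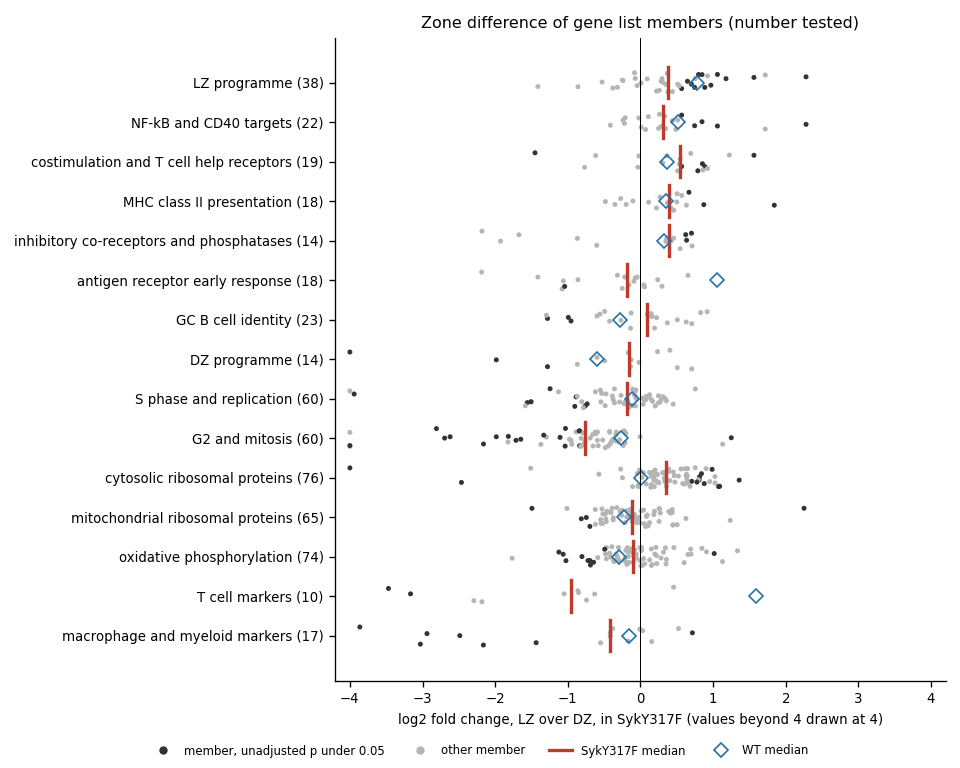
Log2 fold change of LZ over DZ in SykY317F for the tested members of 15 gene lists (number in brackets), dark where the unadjusted p was under 0.05, with the list median as a red line and the WT median as a blue diamond. Values beyond 4 are drawn at 4. The LZ programme (0.37) and cytosolic ribosomal proteins (0.35) lie to the right of 0, G2 and mitosis (-0.76) to the left, and the SykY317F and WT medians lie on opposite sides of 0 for the early response, GC B cell identity and T cell lists.

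Genes of the dark zone lay mostly below 0, and those of GC identity were split. The DZ programme had 10 of 14 members below 0 and a median of -0.15, against -0.60 in WT. Its summed level overlapped between the zones, at 2233, 1755 and 2109 in DZ and 1857, 1767 and 1794 in LZ. By unadjusted p, 3 members (21.4%, against 6.23% of all genes) were under 0.05 on the lower side and 0 on the higher, and 0 passed after adjustment. Hmmr, a microtubule-bound hyaluronan receptor, had 26, 29 and 16 UMIs in DZ and 0, 1 and 3 in LZ (-1.98 ± 0.87). Fgd6, an exchange factor for Cdc42, had 23, 18 and 5 UMIs in DZ and 0 in LZ, at least 3.19-fold less by that bound. GC B cell identity genes had 12 of 23 above 0 and a median of 0.09, which turned to -0.05 with scaling by library size and to -0.28 without LZ replicate 1. Within that list, Bcl6 (-0.96 ± 0.29, adjusted p = 0.265) and the transcriptional coactivator Pou2af1, at 969.9, 574 and 639 in DZ and 376, 271 and 452 in LZ (-0.99 ± 0.32), were lower in every LZ library. The death receptor Fas was higher in every one, at 73.3, 65.9 and 96.8 in DZ and 134, 119 and 188 in LZ (0.92 ± 0.49).

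The plasma cell list, whose sum was lower in LZ, had 9 of 16 members above 0 and a median of 0.07, so its sum and median pointed in different directions. Mzb1, a chaperone of antibody secretion, overlapped between the zones at 1574, 999.6 and 1929 in DZ and 1054, 768 and 721 in LZ (-0.82 ± 0.28).

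Nearly all genes of G2 and mitosis had lower values in LZ. Of 60 tested members, 58 had a log2 fold change below 0 and 2, Cks2 and Pbk, above, where 46.7% of all genes were above 0. On the lower side 16 members had an unadjusted p under 0.05 (26.7%, against 6.23% of all genes), 1 did on the higher side, and 0 passed after adjustment. In 24 members every LZ library lay below every DZ library (40%, against 8.5% of all genes), and in 2 above (3.33%, against 6.56%). The median was -0.76, or -0.68 when 5 members without LZ UMIs took their bound, and it ran from -0.92 to -0.58 when single libraries or both shallowest were left out. In the pair of equal depth it was -0.69. In WT it was -0.26, with 14 of 60 members above 0 (48.3% of all genes in WT). The median of the members' own differences between genotypes was -0.50, and 0 members passed for that difference.

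Summed over the list, G2 and mitosis stood at 4826, 3753 and 6433 in DZ and 3367, 2382 and 2879 in LZ. The highest LZ library was below the lowest DZ library, which was replicate 2. In WT the sums ran from 5311 to 6925 in DZ and from 3530 to 6632 in LZ, so the SykY317F LZ libraries were all below the WT LZ range. Bulk RNA cannot tell fewer dividing cells from less of this RNA in each cell.

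Ccnb2, a B-type cyclin that drives mitotic entry, was at 188, 102 and 177 in DZ and 29.8, 0 and 43.9 in LZ (-2.62 ± 0.57, adjusted p = 0.111). Ube2c, the ubiquitin-conjugating enzyme of the anaphase-promoting complex, was at 146, 126 and 218 in DZ and 50.7, 39.5 and 43.9 in LZ (-1.82 ± 0.42). Cdc20, the activator of that complex, was at 78.4, 58.5 and 116 in DZ and 29.8, 11.3 and 31.4 in LZ (-1.71 ± 0.41). These 3 genes had no overlap between the zones, and each was lowest among DZ libraries in replicate 2. Mad2l1, the checkpoint protein that inhibits Cdc20, had 78, 82 and 38 UMIs in DZ and 3, 2 and 5 in LZ (-2.16 ± 0.53). Mki67, the proliferation marker, was at 173, 156 and 213 in DZ and 134, 84.7 and 125 in LZ (-0.62 ± 0.37). Cks2 stood out on the other side, at 13.1, 14.8 and 11.1 in DZ and 47.8, 16.9 and 25.1 in LZ. Ube2c and Cdc20 overlap another annotated gene and are uncertain in the way given above.

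Promoters of such genes are known to hold 2 short elements, the CHR (cell cycle genes homology region), through which the DREAM complex silences them in resting cells, and CCAAT boxes bound by NF-Y. The 4 promoters below belong to the members just described and are shown because 58 of the list's 60 members lay on one side. They are RefSeq windows of GRCm38.p6, from 250 bases before to 50 after the gene start, with the CHR (TTTGAA or TTCGAA) and the CCAAT box (CCAAT), searched on both strands, in capitals, so that a capital ATTGG or TTCAAA is the same element on the other strand.
Ccnb2, chr9:70421505-70421804, minus strand: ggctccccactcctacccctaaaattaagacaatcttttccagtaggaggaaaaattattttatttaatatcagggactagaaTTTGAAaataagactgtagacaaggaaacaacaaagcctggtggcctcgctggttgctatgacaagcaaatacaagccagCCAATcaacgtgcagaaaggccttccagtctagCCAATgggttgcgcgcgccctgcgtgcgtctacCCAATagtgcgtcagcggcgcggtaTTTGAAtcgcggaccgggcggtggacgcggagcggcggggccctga
Ube2c, chr2:164769679-164769978, plus strand: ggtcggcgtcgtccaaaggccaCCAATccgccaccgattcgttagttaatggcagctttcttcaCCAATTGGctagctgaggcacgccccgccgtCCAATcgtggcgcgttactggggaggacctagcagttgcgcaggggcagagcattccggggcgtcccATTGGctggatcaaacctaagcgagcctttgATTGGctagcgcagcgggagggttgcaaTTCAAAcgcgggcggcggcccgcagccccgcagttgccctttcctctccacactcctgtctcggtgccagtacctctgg
Cdc20, chr4:118437294-118437593, minus strand: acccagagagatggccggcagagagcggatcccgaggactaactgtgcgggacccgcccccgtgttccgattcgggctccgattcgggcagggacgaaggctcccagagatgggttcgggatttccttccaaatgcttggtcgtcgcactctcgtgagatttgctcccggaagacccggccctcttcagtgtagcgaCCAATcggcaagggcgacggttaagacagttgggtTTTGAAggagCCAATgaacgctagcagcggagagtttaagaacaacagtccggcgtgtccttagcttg
Mad2l1, chr6:66534971-66535270, plus strand: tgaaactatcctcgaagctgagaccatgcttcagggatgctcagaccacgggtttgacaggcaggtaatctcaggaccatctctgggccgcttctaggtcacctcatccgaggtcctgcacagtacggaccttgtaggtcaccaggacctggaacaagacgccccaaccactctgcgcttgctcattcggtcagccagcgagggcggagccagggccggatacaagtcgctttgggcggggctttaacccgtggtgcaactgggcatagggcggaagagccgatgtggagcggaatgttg
Ccnb2 had 5 matches, Ube2c 7, Cdc20 3 and Mad2l1 0. The Mad2l1 window follows the RefSeq start and ends before the start given for Mad2l1 by the annotation used for the other coordinates, so its count bears on that window alone. In Ube2c a forward and a reverse CCAAT share bases in 1 place. Promoter windows were matched for 46 of the 60 G2 and mitosis genes, which gave 51 windows. A CHR was in 76.5% of those windows, in 19.6% of the windows of S phase genes, in 14.0% of those of all tested genes and in 19.2% of the whole table. CCAAT was in 82.4%, 62.5%, 38.1% and 37.4%. An E2F site (TTTGGCGC, TTTCGCGC, TTTGGCGG or TTTCCCGC) was in 1.96%, 41.1%, 4.73% and 2.37%. These are matches of letters in a fixed window and describe the lists, which were put together by function.

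S phase and replication genes stood closer to all genes. Of 60 tested members 40 were below 0, the median was -0.19, and in the pair of equal depth it turned to 0.07. By unadjusted p, 8 members (13.3%) were under 0.05 on the lower side and 0 on the higher. E2f8, a repressor of E2F targets, had 38, 34 and 8 UMIs in DZ and 1, 0 and 0 in LZ, a ratio of 16.7 (95% counting interval 2.91 to 666). Rfc4, a subunit of the clamp loader, was at 38.5, 44.4 and 63.6 in DZ and 14.9, 16.9 and 31.4 in LZ (-1.24 ± 0.49). Rpa1, the large subunit of the complex that coats single-stranded DNA, was at 199, 155 and 171 in DZ and 107, 102 and 107 in LZ (-0.73 ± 0.25). Among G1 cyclins and the Myc axis, Myc overlapped between the zones at 34.1, 59.2 and 24.9 in DZ and 23.9, 67.7 and 69.0 in LZ (0.30 ± 0.52, and -0.78 without both shallowest libraries). Ccnd3, the cyclin that sustains division in the DZ, had -0.17 ± 0.31, and Foxo1, a transcription factor of DZ cells, -0.02 ± 0.26, and both changed sign when some libraries were left out. Mxd4, an antagonist of Myc, was higher in every LZ library at 32.7, 25.6 and 47.0 in DZ and 92.5, 50.8 and 75.3 in LZ (1.15 ± 0.42).

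The early response to antigen receptor signals depended on replicate 2. Its genes, such as Egr3, Fos and Nr4a1, are transcribed within minutes of receptor engagement. Their summed level was 1771, 3981 and 1495 in DZ and 1707, 3071 and 1668 in LZ, and replicate 2 was the highest in both zones. Nr4a1 had 15, 917 and 1 UMIs in DZ and 2, 60 and 6 in LZ, and Fos 10, 168 and 1 in DZ and 0, 6 and 0 in LZ. Over the list 5 of 18 members were above 0, with a median of -0.19. Without DZ replicate 2 the median was 0.72, and in the pair of equal depth 0.24, against 1.05 in WT. The direction of this list in SykY317F therefore rested on 1 library. Pim1, a kinase that supports survival, was the 1 member lower in every LZ library, at 284, 154 and 249 in DZ and 146, 129.8 and 43.9 in LZ (-1.04 ± 0.36). At 5.56% of the list, such members were no more frequent than among all genes (8.5%).

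Genes of cytosolic ribosomal proteins had 65 of 76 tested members above 0 and a median of 0.35, where the WT median was 0.01. Their sum was 182248, 235288 and 270520 in DZ and 301314, 358782 and 195740 in LZ, which overlapped, with LZ replicate 2 the highest and LZ replicate 4 near the lowest DZ library. Without LZ replicate 2 the median was 0.10, without LZ replicate 4 0.57, and in the pair of equal depth 0.12. Rpl36a was at 403, 889.9 and 517 in DZ and 1012, 2252 and 1399 in LZ (1.36 ± 0.43), and Rpl24 at 505, 754 and 915 in DZ and 1167, 2410.4 and 1041 in LZ (1.09 ± 0.35). Both are proteins of the large subunit. Ribosomal protein genes have near-identical pseudogenes, so these counts are uncertain.

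Mitochondrial ribosomal proteins did not share that direction, with 24 of 65 above 0 and a median of -0.11. Oxidative phosphorylation had 29 of 74 above 0 and a median of -0.10, and 11 members were lower and 4 higher in every LZ library (14.9% and 5.41%, against 8.5% and 6.56% of all genes). Among the lower, Sdhd, an anchor subunit of complex II, was at 145, 102 and 169 in DZ and 65.7, 79.0 and 56.5 in LZ (-1.03 ± 0.29), and Uqcrc2, a core subunit of complex III, at 163, 169.5 and 152 in DZ and 77.6, 39.5 and 107 in LZ (-1.12 ± 0.43). Uqcrh, a small subunit of the same complex, went the other way at 357, 380.1 and 368 in DZ and 922, 892 and 408 in LZ (1.02 ± 0.36). The lists of the proteasome (median -0.12), splicing (-0.17), nucleolar ribosome biogenesis (-0.04), heat shock chaperones (-0.13), interferon response (-0.09), glycolysis (0.13) and sterol synthesis (0.15) had medians between -0.17 and 0.15, and 0 of their members passed. Of splicing genes 14% and of sterol synthesis genes 11.1% had an unadjusted p under 0.05 on the lower side, against 6.23% of all genes.

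**Figure D5:**
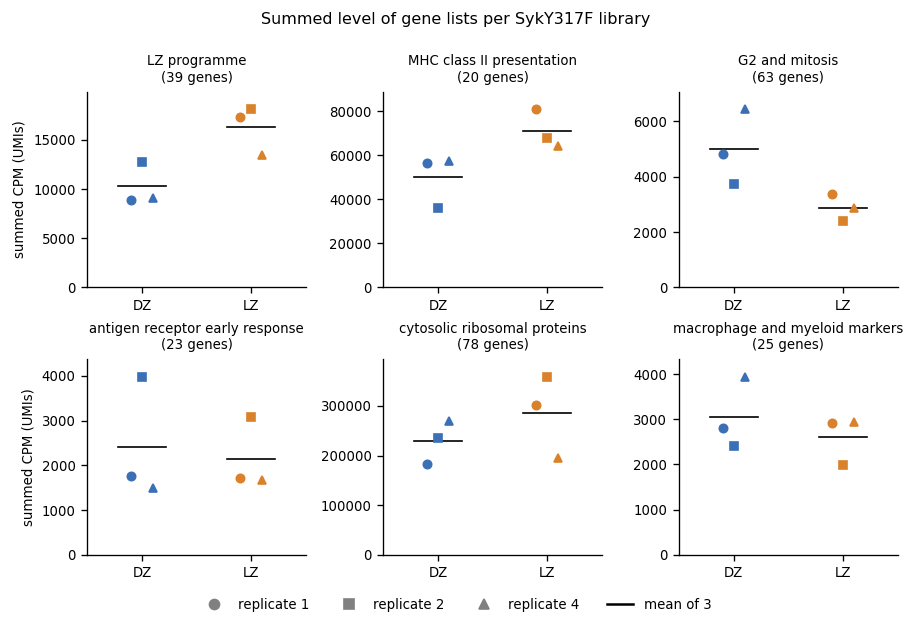
Summed CPM of the members of 6 gene lists in each SykY317F library (circles, squares and triangles for replicates 1, 2 and 4, line at the mean of 3). On this TMM scale the zones are apart for the LZ programme, MHC class II and G2 and mitosis. As plain shares of UMIs, those of MHC class II overlap. Replicate 2 is the highest in both zones for the early response, and LZ replicate 4 lies among the DZ libraries for ribosomal proteins.

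Receptors that guide B cell migration went in both directions. Besides Ffar2 and S1pr3, Ccr6, the receptor for CCL20, was higher in every LZ library at 71.1, 137 and 80.2 in DZ and 212, 220.2 and 188 in LZ (1.09 ± 0.45). S1pr1, the sphingosine 1-phosphate receptor for exit from lymph nodes, was lower in every LZ library at 35.6, 91.5 and 27.6 in DZ and 17.9, 22.6 and 18.8 in LZ (-1.45 ± 0.58). In LZ replicate 4 its 18.8 CPM is 3 UMIs. Of 23 genes of such receptors 11 were above 0 (median -0.03). The list of the glucocorticoid receptor and its targets, which holds Nr3c1, had 8 of 16 members above 0 (median -0.02). Ddit4, an inhibitor of mTOR signals and a target of that receptor, was at 97.3, 120.4 and 141 in DZ and 266, 147 and 226 in LZ (0.86 ± 0.37). The list of Gadd45 and p53 responses likewise had 8 of 18 above 0 (median -0.04), with Mdm2, the ligase that degrades p53, at 66.8, 114 and 99.5 in DZ and 50.7, 56.5 and 37.6 in LZ (-0.93 ± 0.40). Of the apoptosis list, Bid, which links death receptors to mitochondria, was at 119, 113 and 88.5 in DZ and 143, 181 and 226 in LZ (0.74 ± 0.28).

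Markers of T cells and macrophages were measured in both zones, and most tested members of each list were lower in LZ. T cell markers summed to 230.1, 431 and 519.7 in DZ and 221, 395 and 314 in LZ, which overlapped, with 16, 18 and 16 of 18 markers detected in DZ and 6, 11 and 10 in the shallower LZ. The median over 10 tested members was -0.96, against 1.59 in WT, with 9 members below 0 and 1, Lck, above. Cd4 had 8, 31 and 7 UMIs in DZ and 0, 0 and 1 in LZ. Cd3e, part of the T cell receptor complex, had 6, 12 and 3 UMIs in DZ and 0, 8 and 1 in LZ, which is 4.36, 8.07 and 8.29 CPM in DZ and 0, 45.2 and 6.27 CPM in LZ, highest in LZ replicate 2. Lck, a kinase of T cells, was higher in every LZ library at 114, 116 and 119 CPM in DZ and 155, 129.8 and 194 in LZ (0.46 ± 0.31). Macrophage and myeloid markers summed to 2806, 2416 and 3939 in DZ and 2910.1, 1987 and 2929 in LZ, which overlapped, with 24, 24 and 22 of 25 markers detected in DZ and 18, 18 and 16 in LZ. Apoe alone was a large part of each sum, at 1403, 857 and 1891 CPM in DZ and 1636, 717 and 1317 in LZ. Of 17 tested members 13 were below 0 and 4 above (median -0.41). Every LZ library lay below every DZ library in 6 (35.3%, against 8.5% of all genes) and above in 1 (5.88%, against 6.56%). Some defining genes had few UMIs in LZ. The complement gene C1qa had 32, 33 and 13 UMIs in DZ and 0, 2 and 0 in LZ, and C1qc 24, 25 and 14 in DZ and 1, 0 and 0 in LZ. Lyz2, the lysozyme of myeloid cells, had 173, 219 and 109 in DZ and 6, 4 and 11 in LZ (-2.49 ± 0.82), and the adaptor Tyrobp 33, 86 and 22 in DZ and 2, 2 and 0 in LZ (-2.94 ± 0.86). Others did not follow: the lysosomal protein Cd68 overlapped at 21.8, 22.9 and 30.4 CPM in DZ and 14.9, 22.6 and 18.8 in LZ (-0.41 ± 0.51), and Cybb, a subunit of the phagocyte oxidase, was higher in every LZ library at 199.7, 303 and 287 in DZ and 409, 305 and 583 in LZ (0.71 ± 0.34). Macrophages also express MHC class II and other lists above. The part of these cells, and of depth, in the zone differences given here was not tested.

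The authors' deposited table, made from the same counts, lists 22 genes at an adjusted p of 0.05 or below for this comparison, 8 higher and 14 lower in LZ. They include all 3 genes called by edgeR and 15 of the 24 genes of smallest p described here. In 21 of the 22 the LZ and DZ libraries did not overlap, against 6.56% of all tested genes with LZ above and 8.5% with LZ below. As the calls came from these same libraries, this is no further support for them.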

How the data were processed

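RNA of sorted GC B cells was captured on oligo(dT) beads and made into libraries with a variant of MARS-seq, per the labels' protocols. Tools in the submitters' processing notes are STAR 2.4.2a, cutadapt, HTSeq, DESeq and DESeq2, with the build mm10. How reads were counted, strand included, is not given in the sources used here. Both tables that the authors deposited, UMI counts of 9969 gene symbols and read counts of 11914, hold whole numbers without normalization. Their table also holds deposited normalised values, a signal (UMI counts over a size factor of each library), as well as log2 fold changes and regularised log2 values. The authors' deposited p-values and adjusted p-values were used only to count shared calls. Of the read table, 19 rows with 0.0653% of the reads are named as dates.

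UMI counts of all 14 libraries were filtered (filterByExpr, 7999 genes, 99.3% of UMIs), TMM scaled and passed to edgeR 4.0.16 (R 4.3.3, robust quasi-likelihood, 4 groups, common biological coefficient of variation 32.3%), with Benjamini-Hochberg values over all genes. Genotypes were compared by the interaction contrast. Lists were given counts and medians and no test. The members and lists were chosen with earlier results of these data known. Named genes are those past the threshold, the 12 of smallest p on each side (no predicted genes, pseudogenes or Riken clones), up to 4 members of smallest p per list, GC genes always given (1 of them and 1 list are not reported here), those past the WT threshold and defining markers of other cell types, of which some are shown. Nr4a1, Pbk, Lck, Cd68, Cybb and the genes of the closing section were chosen after their values were seen. Folds against 0 UMIs use a floor of 3 UMIs over the group, and at 1 to 3 UMIs the ratio has a 95% interval by the exact binomial method. Coordinates are those of GRCm38 (9608 genes matched). Steps were tested on simulated counts. Alternatives were other scalings, filters and tools (DESeq2 1.42.0, limma 3.58.1), a fit of the 6 libraries alone, a replicate block and leaving out each library. Read counts, thinning to the depth of the shallowest library (21 draws), leaving out both shallowest SykY317F libraries, the pair of equal depth and bounds were also tried, of which the last 2 were added after seeing the data.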

Additional observations from a re-analysis of the deposited data

Results flagged for a closer look

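Nhlh2, a transcription factor best known from neurons, was present in some libraries and nearly absent in others. It was singled out after its values were seen, as 1 of the 4 genes with the widest range over the libraries. In WT DZ, 1 of 4 libraries, replicate 3, held 345 UMIs and the other 3 held 0, so the gap to the nearest library was the whole range (gap over range 1). In WT LZ, replicate 3 held 162 UMIs and the others 1, 2 and 3 (gap over range 0.997). The SykY317F DZ libraries held 441, 2 and 432 UMIs and the LZ libraries 691, 1 and 506 for replicates 1, 2 and 4, so the same replicate numbers were high in both zones.

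Nr4a1, an early response gene, was at 64.7, 313, 26.9 and 39.3 CPM in WT LZ replicates 1, 2, 3 and 5, with replicate 2 far from the others (gap over range 0.868). The values were tested in 22 groups of 4 libraries, of which 3 had such a gap. Chance gives about 1 in 20 for genes not chosen by their spread, and since Nhlh2 and Nr4a1 were both taken for their wide range that rate does not apply to them.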

How the results depend on the processing

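Between the SykY317F zones 3 genes passed. The count was 9 with scaling by library size only, 39 with DESeq2's Wald test, 20 with read counts, 1 in a fit of the 6 libraries alone, 0 without both shallowest libraries, and 0 to 10 when single libraries were left out. DESeq2 size factors, voom with quality weights, both other filters and thinning gave 2 to 4, but after thinning Ffar2 (edgeR adjusted p = 0.134) and Nr3c1 (0.122) no longer passed, whereas Gadd45b did and Pafah1b3 passed as well (0.0228). Single libraries that moved it by over 1.5 times were DZ replicates 1 and 4 and LZ replicate 2 (0 each without them), LZ replicate 1 (1), LZ replicate 4 (5), WT DZ replicate 5 (8) and DZ replicate 2 (10, which include the 3). With the replicate number as a block the count was 0 within genotype and 1 across genotypes. Deviations of same-numbered SykY317F libraries correlated at 0.128, 0.215 and -0.0694, not every library correlated best with its own number, and the labels do not say whether a number marks a mouse, so whether the numbers pair the zones is not known. For WT, where 15 genes passed, DESeq2's Wald test gave 84, the block within genotype 1, read counts 0, and leaving out single libraries 1 to 26. The difference between genotypes gave 0 in each of the 20 alternatives run. Among 84 named genes, 12 of 2168 recomputed fold changes changed sign. They were Ccnd3 (from -0.40 to 0.065 when single libraries were left out, 0.15 without both shallowest libraries), Cxcr4 (from -0.21 to 0.40, and -0.17 without both), Gadd45g (-0.021) and Myc (-0.78) without both, and Foxo1 (from -0.13 to 0.15, 0.076 with voom, 0.0079 with the 20-count filter, 0.0020 with the block within genotype, 0.045 without both). The cause was not tested. A further 40 values, of genes not called, passed under an alternative. Of 480 recomputed list medians 54 changed sign. Those of the LZ programme (0.27 to 0.76), MHC class II (0.28 to 0.51), NF-kB and CD40 targets (0.16 to 0.44), G2 and mitosis (-0.92 to -0.58) and ribosomal proteins (0.10 to 0.57) kept theirs in each alternative. Depth limits the LZ side: genes under 8.95 to 18.8 CPM there rest on fewer than 3 UMIs per library, so fold changes of weak genes have wide errors.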

Other observations

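The T cell and macrophage markers of the SykY317F zones stood beside WT values as follows. T cell markers summed to 110 to 198 CPM in WT DZ and 217 to 466 in WT LZ, and macrophage and myeloid markers to 1881 to 3540 and 2131 to 3028.

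Trim12c, a gene of the TRIM family on chromosome 7 (104338754 to 104353362, GRCm38), had UMI counts of 1398, 73 and 1676 in replicates 1, 2 and 4 of SykY317F DZ. The LZ libraries held 7, 13 and 0. Its 4 values in WT DZ ran from 4 to 72 UMIs and in WT LZ from 4 to 64. The log2 fold change between the SykY317F zones was -5.94 and did not pass in edgeR (adjusted p = 0.301), while the authors' deposited table lists an adjusted p of 0.0236.

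Rpl39, a ribosomal protein gene, had UMI counts of 42, 1987 and 102 in SykY317F DZ and of 28, 84 and 6 in LZ. In WT it ran from 12 to 1303 in DZ and from 20 to 1259 in LZ. Both genes were singled out after their values were seen.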
